A study of Mus musculus with 16 samples.

Results

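The 10 genes described here are the globins and primitive erythroid genes of 24421 genes in the stage tables: Hba-x, Hbb-bh1, Hbb-y, Hba-a1, Hba-a2, Klf1, Gata1, Alas2, Hemgn and Epor. They were chosen by name, with the E8.5 contrast of knockout (KO) and wild type (WT) known, in which the embryonic globins stood far apart between libraries. The E8.5 values are therefore given as a description, with no test. RNA was sequenced from C57BL/6 mouse embryos lacking the microRNA cluster miR-302 and from wild type embryos, as whole embryos at E7.5 (2 KO and 2 WT libraries), Wnt1-Cre+ sorted cells at E8.5 (4 KO and 3 WT) and Sox10+ sorted cells at E9.5 (2 KO and 2 WT). Wnt1-Cre marks the dorsal neural tube and the neural crest that leaves it, and Sox10 is a transcription factor of migrating crest cells, so both sorts were for neural crest. The labels name no reporter or antibody for the sorts and do not say which libraries came from separate embryos, so the p-values below measure the spread between libraries.

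The first red cells of the mouse, the primitive erythroid cells, form in blood islands of the yolk sac and enter the circulation once the heart beats. They carry embryonic haemoglobin, built from the alpha-type chain zeta (Hba-x) and the beta-type chains beta-h1 (Hbb-bh1) and epsilon-y (Hbb-y), and in the mouse beta-h1 comes to be replaced by epsilon-y, and zeta by the alpha chains of Hba-a1 and Hba-a2, as these cells mature. Gata1 is the zinc finger transcription factor without which erythroid cells do not mature, and Klf1 is a second zinc finger factor that activates globin and heme genes. Alas2 makes the erythroid form of the first enzyme of heme synthesis, Hemgn encodes a nuclear protein of blood-forming cells, and Epor is the receptor for the hormone erythropoietin.

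The upstream sequences of 5 of these genes are shown because the results below turn on these genes and because Gata1 and Klf1 are known for binding GATA and CACCC motifs. Each is the 250 bases before the RefSeq start (build GRCm38.p6), 5′ to 3′ on the gene's strand. Hba-x lies on the plus strand at chr11:32276350-32276599, Hbb-y on the minus strand at chr7:103853208-103853457, Klf1 on the plus strand at chr8:84901732-84901981, Alas2 on the plus strand at chrX:150547167-150547416 and Hemgn on the minus strand at chr4:46404184-46404433. Capitals mark a GATA motif (the letters GATA after A or T and before A or G, on either strand), a CACCC motif (CCACCC, either strand) or TATAAA on the gene's strand; matches of different kinds did not overlap, and in Alas2 the 3 CACCC matches overlap each other.

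Hba-x: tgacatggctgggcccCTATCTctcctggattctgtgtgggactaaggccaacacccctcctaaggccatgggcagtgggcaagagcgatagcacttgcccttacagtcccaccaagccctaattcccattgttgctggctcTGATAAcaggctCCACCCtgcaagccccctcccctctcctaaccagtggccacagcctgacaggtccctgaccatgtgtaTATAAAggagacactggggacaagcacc

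Hbb-y: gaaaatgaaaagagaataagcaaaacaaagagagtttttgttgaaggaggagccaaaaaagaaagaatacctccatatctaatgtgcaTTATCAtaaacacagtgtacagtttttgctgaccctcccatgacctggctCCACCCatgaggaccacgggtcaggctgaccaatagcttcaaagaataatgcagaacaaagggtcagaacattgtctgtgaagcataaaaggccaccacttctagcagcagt

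Klf1: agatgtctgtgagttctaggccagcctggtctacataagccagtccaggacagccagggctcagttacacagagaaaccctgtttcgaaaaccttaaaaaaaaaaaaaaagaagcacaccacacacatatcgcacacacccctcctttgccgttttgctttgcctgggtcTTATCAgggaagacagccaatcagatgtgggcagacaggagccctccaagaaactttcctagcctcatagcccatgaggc

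Alas2: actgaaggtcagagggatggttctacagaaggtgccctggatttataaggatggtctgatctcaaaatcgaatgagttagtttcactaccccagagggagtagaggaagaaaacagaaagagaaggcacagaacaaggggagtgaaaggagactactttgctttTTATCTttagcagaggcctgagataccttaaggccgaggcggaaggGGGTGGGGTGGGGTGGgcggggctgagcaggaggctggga

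Hemgn: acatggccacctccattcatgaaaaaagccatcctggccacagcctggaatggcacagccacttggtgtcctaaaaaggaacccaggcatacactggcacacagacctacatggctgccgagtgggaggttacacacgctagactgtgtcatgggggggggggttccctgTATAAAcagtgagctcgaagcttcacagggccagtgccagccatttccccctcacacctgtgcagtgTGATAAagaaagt

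RefSeq promoters were found for 9 of the 10 genes, Hbb-bh1 being the exception. A GATA motif was present in the upstream window of 8 of these 9, Gata1 itself having none, against 26.5% of the 32536 distinct promoter windows searched. A CACCC motif was present in 7 of 9, against 28.1% of all windows, and TATAAA in 2 of 9 (Hba-x and Hemgn), against 7.55%. Both motif kinds together were present in 6 of 9 windows, against 5.80% of all. The Hba-a1 and Hba-a2 windows hold the same sequence shifted by a few bases, with the same matches, and each is counted here. A match describes the letters in this window and not a bound site.

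The total of reads over all genes ranged from 4912827 to 14861728 in the 15 libraries analysed, so 3 reads correspond to between 0.202 and 0.611 on the reads-per-million scale (RPM). A further E8.5 KO library was not analysed here. The 4 miR-302 precursors together had no read in any KO library and 14 to 25 reads in the WT libraries at E7.5, while at E8.5 and E9.5 they had at most 1 read in a WT library, so they check the genotype at E7.5 alone. All 11 epiblast and primitive streak markers were above 0 in each E7.5 library, against 3 to 11 of them in the sorted libraries. Of 16 neural crest markers, 15 or 16 were above 0 in each sorted library, against 12 to 14 in the E7.5 libraries. A value above 0 thus says little about which cells a library came from. Some libraries leaned to short or long transcripts. Over all genes, the deviation of a library from the mean of its stage correlated with transcript length (Spearman) at -0.45 and -0.53 in the E9.5 KO libraries, against 0.55 and 0.61 in the E9.5 WT libraries, and at E8.5 at 0.04, -9.9e-05, 0.43 and -0.38 in KO1 to KO4, against -0.40, -0.36 and 0.44 in WT1_5s, WT2 and WT3. Globin transcripts are short, and the part of this trend in the values below was not tested beyond the fit with the trend removed.

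The embryonic globins were all but absent from whole embryos at E7.5. Hba-x and Hbb-bh1 had 0 reads in both KO and both WT libraries, and Hbb-y had 0 in both KO libraries and in WT1 and 1 read in WT2, a normalised count (the authors' counts scaled for depth) of 1.26. Hemgn was also at 0 in all 4. At these depths a count of 0 allows up to 0.611 RPM in the shallowest library.

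Gata1, Alas2 and Epor were present at E7.5 without the globins. Gata1 had normalised counts of 15.3 and 51.3 in KO embryos, against 39.4 and 30.2 in WT embryos. Alas2 had 111 and 76.9 in KO embryos, against 45.0 and 103 in WT embryos. Epor had 32.0 and 2.40 in KO embryos, against 41.5 and 18.8 in WT embryos. The groups overlapped for all 3 genes, which were the members with a mean of at least 10 and hence tested. Klf1 was near the floor, at 1.39 and 3.21 in KO embryos, against 3.51 and 1.26 in WT embryos. These values rest on 1 and 4 reads in KO1 and KO2 and on 5 and 1 in WT1 and WT2.

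No member passed the test at E7.5, where 0% of 12492 genes did (limma with Benjamini-Hochberg adjustment over all genes tested; 385 genes at an unadjusted p below 0.05). The log2 fold change, KO over WT and on the log2(normalised count + 1) scale throughout, was -0.28 ± 0.65 (SE) for Gata1, 0.44 ± 0.49 for Alas2 and -1.45 ± 1.08 for Epor, each with a limma adjusted p of 1.0. By edgeR's quasi-likelihood test 0 genes were called (399 at an unadjusted p below 0.05) and by DESeq2 34, none of them a member. Per kilobase of transcript, Alas2 was the highest of the 10 in each of the 4 libraries except WT1, with 7.99 and 5.35 RPKM (reads per kilobase of transcript in RPM) in KO and 3.42 and 6.82 RPKM in WT embryos, where Epor stood at 3.65 RPKM in WT1.

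**Figure D1:**
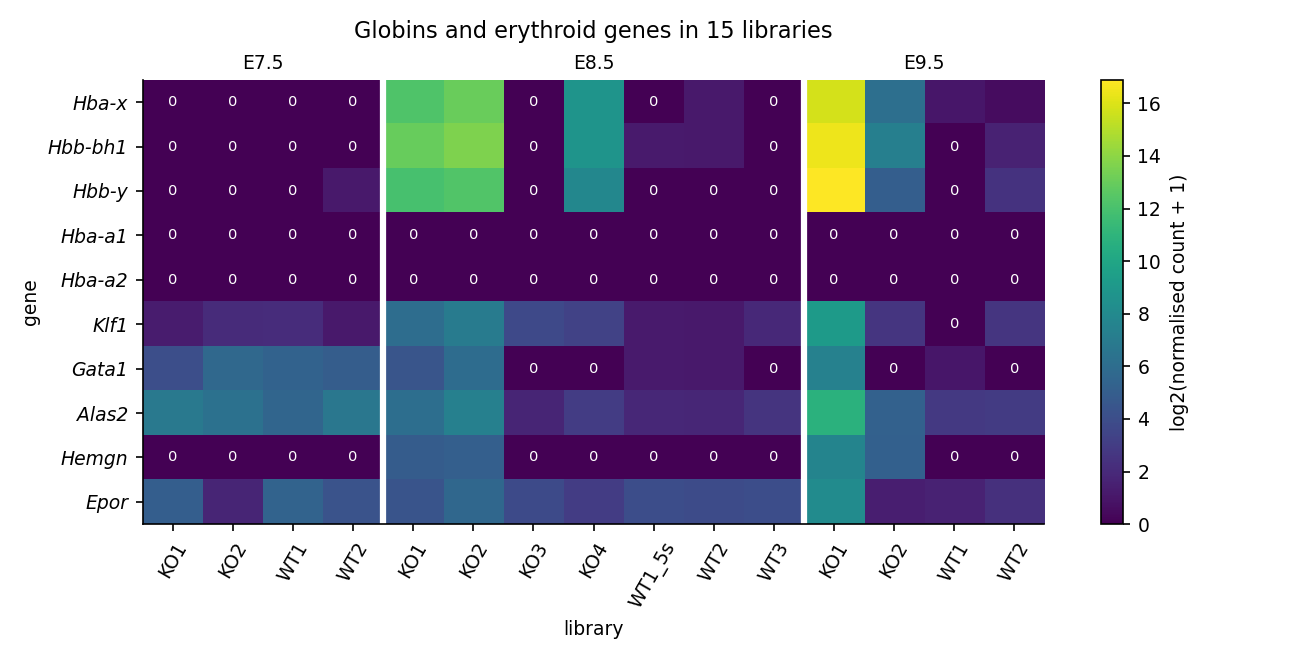
Level of the 10 genes, as log2(normalised count + 1), in each library (columns, KO left of WT within a stage; a 0 marks a gene with no read). The embryonic globins are high in E8.5 KO1 and KO2, intermediate in E8.5 KO4 and highest in E9.5 KO1, and each stage was scaled on its own.

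At E8.5 the embryonic globins separated the KO libraries from each other more than KO from WT. Hba-x had normalised counts of 4773, 8295, 0 and 427 in KO1 to KO4, against 0, 1.23 and 0 in WT1_5s, WT2 and WT3. Hbb-bh1 had 7994, 12529, 0 and 428 in KO cells, against 1.35, 1.23 and 0 in WT cells. Hbb-y had 3956, 4994, 0 and 220 in KO cells, against 0 in all 3 WT libraries. KO1 and KO2 were thus high, KO4 lower by an order of magnitude, and KO3, the deepest library of the stage, held no read of the 3 genes, as low as WT, so the groups overlapped. KO1 and KO2 share the label's code number (128), which KO3 (157), KO4 (169) and the WT libraries (163, 169 and 214) do not. KO4 and WT2 share code 169, and there the 3 globins summed to 1075 in KO4 and 2.46 in WT2.

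Their level in KO cells averaged 3374 ± 3926 for Hba-x, 5238 ± 6092 for Hbb-bh1 and 2293 ± 2557 for Hbb-y (SD, n = 4), each SD exceeding its mean, against 0.410 ± 0.709, 0.861 ± 0.748 and 0 in WT cells (n = 3). Over all reads of a group, Hba-x stood at 312 RPM in KO and 0.0355 RPM in WT cells, a ratio of 8777 (95% exact interval 1575 to 346694), with 1 WT read. Intervals and floors cover counting error only, since the reads came from amplified cDNA and are not independent molecules. In bulk libraries more cells of a type and more RNA per cell cannot be told apart.

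The erythroid factors and the heme enzyme followed the globins at E8.5 in KO1 and KO2, at far lower levels. Klf1 had 63.5, 132, 12.0 and 9.27 in KO cells, against 1.35, 1.23 and 2.93 in WT cells. It was the one member for which every KO library stood above every WT library, as 3.71% of 12257 genes did. KO3, with no globin read, had 20 Klf1 reads, and KO4, with 927 reads of the 3 embryonic globins, had 8.

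Gata1 had 21.2, 62.5, 0 and 0 in KO cells, against 1.35, 1.23 and 0 in WT cells. Alas2 had 66.6, 163, 2.41 and 6.96 in KO cells, against 2.71, 2.46 and 4.89 in WT cells. Hemgn had 29.0, 33.3, 0 and 0 in KO cells, against 0 in all WT cells. For these 3 genes KO3 and KO4 lay within or near the WT range.

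Epor had levels above 10 in every WT library, unlike the other members. It had 19.6, 47.9, 12.6 and 6.96 in KO cells, against 14.9, 13.5 and 14.7 in WT cells. Over all reads of a group the ratio of KO to WT was 1.61 for Epor (95% exact interval 1.09 to 2.42), 17.0 for Alas2 (8.83 to 37.7), 26.5 for Gata1 (7.11 to 222) and 28.7 for Klf1 (12.1 to 89.2). Hemgn was at least 14.0-fold higher in KO cells, taking 3 reads over the WT group as its floor. limma called 0% of the 12257 genes of the stage, hence none of the 7 members with a mean of at least 10 (742 genes at an unadjusted p below 0.05; edgeR 0; DESeq2 32, among them Hba-x, Hbb-bh1 and Klf1). Without KO3, the KO library with no globin read, limma called 3 genes in all, Hba-x, Hbb-bh1 and Hbb-y. Nothing is read from these counts, since the contrast was known when the genes were chosen. In the authors' deposited table of genes higher in E8.5 KO cells, 5 of the 10 were listed, with log2 fold changes of 4.15 for Alas2, 4.84 for Klf1, 12.6 for Hbb-bh1, 13.0 for Hba-x and 13.4 for Hbb-y, and 3 of the 5 had an adjusted p under the threshold there, Alas2 (0.302) and Hbb-y (0.0653) being the exceptions.

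Markers of other cell types were summed in the same E8.5 libraries, and their part in the erythroid values was not tested. The summed normalised count of 14 macrophage markers was 38.4, 19.8, 88.4 and 27.8 in KO1 to KO4, against 36.6, 25.8 and 18.6 in WT cells, with Ptprc and Aif1 at 0 in every library of the stage. That of 14 yolk sac endoderm markers was 107, 98.9, 282 and 301 in KO cells, against 161, 209 and 124 in WT cells. The 10 megakaryocyte markers summed to 13.3, 16.7, 18.0 and 8.11 in KO cells, against 4.06, 4.91 and 2.93 in WT cells, with Ppbp and Treml1 at 0 throughout. The 17 endothelial markers, a kind of cell that arises beside the first blood cells, summed to 1712, 968, 1026 and 1066 in KO cells, against 1511, 1234 and 911 in WT cells. Neural crest markers summed to between 5378 and 7210 in KO cells and between 4966 and 5449 in WT cells.

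The genes whose profile over the 7 E8.5 libraries was most like the mean log2 level of the members were 2610301B20Rik, Ncald, Slc4a1, Kif3a, Clspn, Angel2, Coq10b, Efcab7, Gypc and Ubn1, with Pearson r between 0.96 and 0.98 among 12250 genes compared. These correlations are over 7 libraries, some of which share a code number or a similar transcript-length trend, and they are a description. Slc4a1, the anion exchanger of the red cell membrane, had 28.2, 45.8, 0.601 and 1.16 in KO cells, against 0 in all WT cells. Gypc, a glycophorin that anchors the membrane skeleton, had 62.7, 85.4, 14.4 and 31.3 in KO cells, against 9.48, 13.5 and 19.6 in WT cells. The other 8 are on none of the erythroid lists. At E9.5 Slc4a1 was high in KO1 and at 0 in KO2, where the globins stood above WT, at 415 and 0 in KO cells, against 1.01 and 2.52 in WT cells, whereas Kif3a, a kinesin motor subunit, had 172 and 213 in KO cells, against 476 and 453 in WT cells.

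At E9.5 the embryonic globins were high in 1 KO library and low in the other. Hba-x had normalised counts of 57095 and 69.7 in KO1 and KO2, against 1.01 and 0.505 in WT1 and WT2. Hbb-bh1 had 91613 and 155 in KO cells, against 0 and 2.02 in WT cells. Hbb-y had 121762 and 32.3 in KO cells, against 0 and 4.54 in WT cells. The 3 genes made up 2.07% of all gene reads in KO1 and 17.6 RPM in KO2, against 0.137 and 0.942 RPM in WT cells, so that KO2 also stood above both WT libraries.

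The other members were high in KO1, and only some of them were above WT in KO2. Alas2 had 1763 and 37.4 in KO cells, against 6.08 and 6.56 in WT cells. Hemgn had 200 and 35.7 in KO cells, against 0 in both WT libraries, and was at least 74.0-fold higher in KO with 3 reads over the WT group as the floor. Klf1 had 593 and 5.10 in KO cells, against 0 and 5.05 in WT cells, the KO2 value resting on 3 reads and the WT2 value on 10. Gata1, at 171 and 0 in KO cells, against 1.01 and 0 in WT cells, and Epor, at 278 and 1.70 in KO cells, against 2.03 and 4.04 in WT cells, were high in KO1 alone.

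By limma, 3 of the 8 members tested rose at E9.5, a share of 37.5%, where 47.5% of 12000 genes passed and 24.5% passed as higher in KO (23.0% as lower), so the members' share lay near that of all genes. Hbb-bh1 rose by 11.09 ± 2.88 (log2, SE; limma adjusted p = 0.0279), Hba-x by 10.17 ± 2.99 (0.0396) and Hemgn by 6.42 ± 1.15 (0.00934). Not past the threshold were Hbb-y at 9.74 ± 3.72 (adjusted p = 0.0803), Alas2 at 5.15 ± 1.76 (0.0598), Klf1 at 4.61 ± 2.31 (0.152), Epor at 2.81 ± 2.22 (0.329) and Gata1 at 3.21 ± 2.56 (0.334). Both KO libraries stood above both WT libraries for 6 of the 8 (5 in RPM, where Klf1 overlapped), as for 38.6% of all genes tested. The 8 reached the minimum mean of 10 largely through KO1, and without it 5 did, so these counts describe and do not support a difference.

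KO1 set the size of these changes. Without KO1, the log2 fold change was 5.34 for Hba-x, 6.49 for Hbb-bh1, 3.82 for Hbb-y, 2.39 for Alas2 and 5.20 for Hemgn. Without KO2 it was 15.69 for Hbb-bh1 and 15.66 for Hbb-y. Without WT1 it was 10.38 for Hba-x and 10.29 for Hbb-bh1. Each of these fits leaves 1 library in a group, assumed to vary like the other group, so calls are not counted. With each library's transcript-length trend removed, 1 member, Hemgn, was called (log2 fold change 5.62), where 28.6% of 11919 genes were, and Hba-x stood at 7.74 and Hbb-bh1 at 8.23. Code numbers (171 for both KO libraries and 209 for both WT libraries) and genotype cannot be told apart at this stage.

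In the authors' deposited table of genes higher in E9.5 KO cells, 7 of the 10 were listed, all but Gata1, Hba-a1 and Hba-a2. Their log2 fold changes in that table ran from 5.50 for Epor and 6.86 for Klf1 to 15.2 for Hba-x and 15.4 for Hbb-bh1, and 6 of the 7 had an adjusted p under the threshold, Klf1 (0.0755) being the exception.

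**Figure D2:**
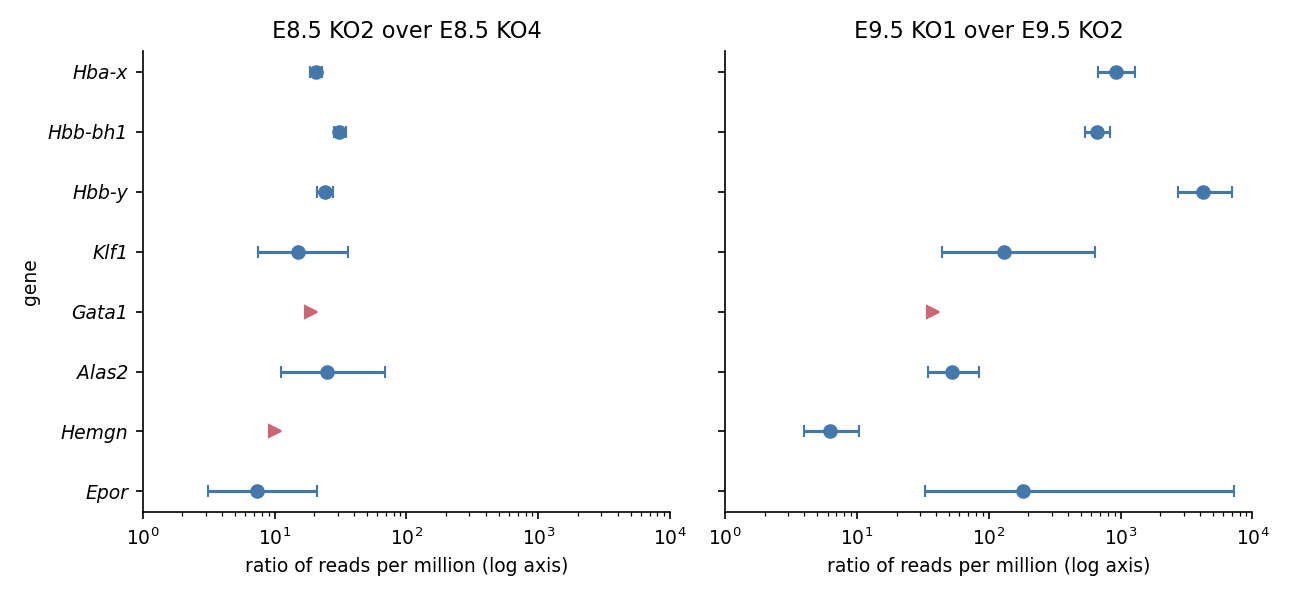
Ratio of RPM (log axis) of each gene between E8.5 KO2 and KO4 (left) and between E9.5 KO1 and KO2 (right); bars are 95% exact intervals for counting error and arrowheads mark lower bounds where the second library had no read. The ratios of the 3 globins lie between 20.6 and 31.0 on the left and between 664 and 4228 on the right, where Hemgn stands at 6.27.

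The 2 E9.5 KO libraries did not differ by 1 common factor. In RPM, KO1 exceeded KO2 by 4228-fold for Hbb-y (95% exact interval 2707 to 7023), 919-fold for Hba-x (677 to 1280) and 664-fold for Hbb-bh1 (541 to 825). For Alas2 the ratio was 52.9 (34.8 to 84.6) and for Hemgn 6.27 (3.98 to 10.4), intervals that do not meet those of the globins. For Klf1 it was 130 (44.4 to 635) and for Epor 183 (32.6 to 7262), wide intervals that meet that of Hbb-bh1. At E8.5, KO2 exceeded KO4 by 20.6-fold for Hba-x (18.6 to 22.9), 31.0-fold for Hbb-bh1 (28.0 to 34.5) and 24.0-fold for Hbb-y (20.8 to 27.9). Hemgn and Gata1, with no read in KO4, gave lower bounds alone. The ratio was 15.1 for Klf1 (7.44 to 35.8), 24.9 for Alas2 (11.2 to 68.9) and 7.30 for Epor (3.11 to 20.9). The spread of the ratios with a value was thus narrower than over the same genes at E9.5. The plot of ratios between libraries shows this.

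Per 1000 embryonic globin reads, Alas2 had 3.98, 6.33 and 6.47 reads in E8.5 KO1, KO2 and KO4, and 6.52 and 146 in E9.5 KO1 and KO2. Hemgn had 1.73, 1.29 and 0 in the E8.5 libraries and 0.738 and 139 in the E9.5 libraries, the last from 21 reads (95% exact interval 86.1 to 213). Klf1 had 3.80, 5.12 and 8.63 at E8.5 and 2.19 and 19.9 at E9.5. E9.5 KO2 thus held more reads of Alas2 and Hemgn per globin read than the other 4 libraries did.

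**Figure D3:**
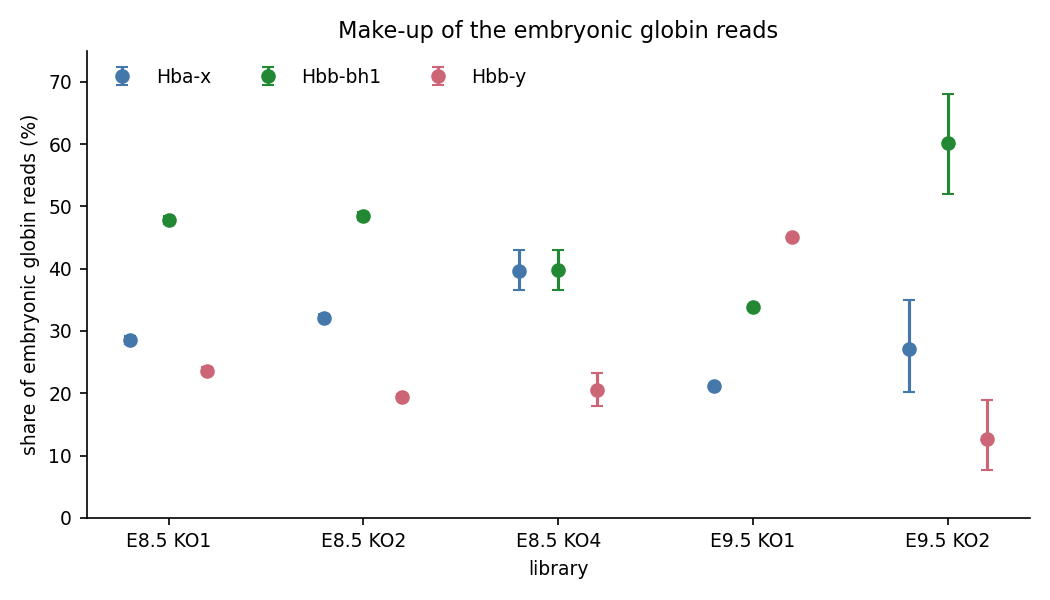
Share of each gene in the reads of the 3 embryonic globins (%, points, with 95% exact binomial intervals) in the 5 KO libraries with at least 20 such reads. Hbb-bh1 leads in E8.5 KO1 and KO2 and in E9.5 KO2, is level with Hba-x in E8.5 KO4, and is second to Hbb-y in E9.5 KO1.

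The make-up of the embryonic globin reads also differed between libraries. Hbb-y took 23.7% (95% exact binomial interval 23.1 to 24.2), 19.3% (18.9 to 19.8) and 20.5% (17.9 to 23.2) of the reads of the 3 genes in E8.5 KO1, KO2 and KO4. In E9.5 KO1 it took 45.0% (44.8 to 45.2), and in E9.5 KO2 12.6% (7.75 to 19.0) of 151 reads. Hbb-bh1 took 47.8%, 48.5% and 39.8% at E8.5, and 33.9% and 60.3% at E9.5. Hba-x took 28.5%, 32.1% and 39.7% at E8.5, and 21.1% and 27.2% at E9.5.

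Per kilobase of transcript, Hbb-y made up 32.4%, 27.9% and 33.3% of the 2 beta-type chains in E8.5 KO1, KO2 and KO4, and 56.3% and 16.8% in E9.5 KO1 and KO2. The order of levels in E8.5 KO2 was 1951 RPKM for Hbb-bh1, 989 for Hba-x, 753 for Hbb-y, 8.25 for Klf1, 7.66 for Alas2, 3.14 for Gata1, 2.60 for Epor and 1.35 for Hemgn. In E9.5 KO1 it was 14754 RPKM for Hbb-y, 11463 for Hbb-bh1, 5467 for Hba-x, 66.4 for Alas2, 29.7 for Klf1, 12.1 for Epor, 6.90 for Gata1 and 6.48 for Hemgn. The 2 beta-type chains thus changed places between these libraries, and Hbb-y also passed Hba-x. Alas2 and Klf1 changed places too, as did Gata1 and Epor. The levels within each of these pairs were close in E8.5 KO2. They rested there on 157, 127, 60 and 46 reads, so the order there is uncertain. Stage tables were scaled apart, so levels set across stages are in RPM or RPKM and are a description.

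The alpha globins were at 0 in every library. Hba-a1 (GRCm38 chr11:32283511-32284465) and Hba-a2 (chr11:32296489-32297298), downstream of Hba-x (chr11:32276400-32278116) in the same cluster, were listed at 0 in all 15, including E9.5 KO1 with 54088 Hba-x reads. The pair are near-identical copies: 67.5% of the 50-base windows of the Hba-a1 transcript and 86.9% of those of Hba-a2 occur in the other (GENCODE M21), which left 211 and 66 windows of their own. No 50-base window of Hba-x, Hbb-bh1 or Hbb-y occurs in another gene's transcript. How the authors counted reads that fit several genes is not given in the sources used here, so the value of 0 is uncertain for these copies. The adult beta globins Hbb-bs and Hbb-bt, which share 65.8% and 58.3% of their windows, were at 0 in all libraries as well. Of the other globins, Hbq1b, a theta-type chain of the alpha cluster, had 136 and 0 in E9.5 KO cells, against 0 in both WT libraries (limma adjusted p = 0.280), and 7.05, 15.6, 0 and 0 in E8.5 KO cells, against 0 in all WT cells.

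**Figure D4:**
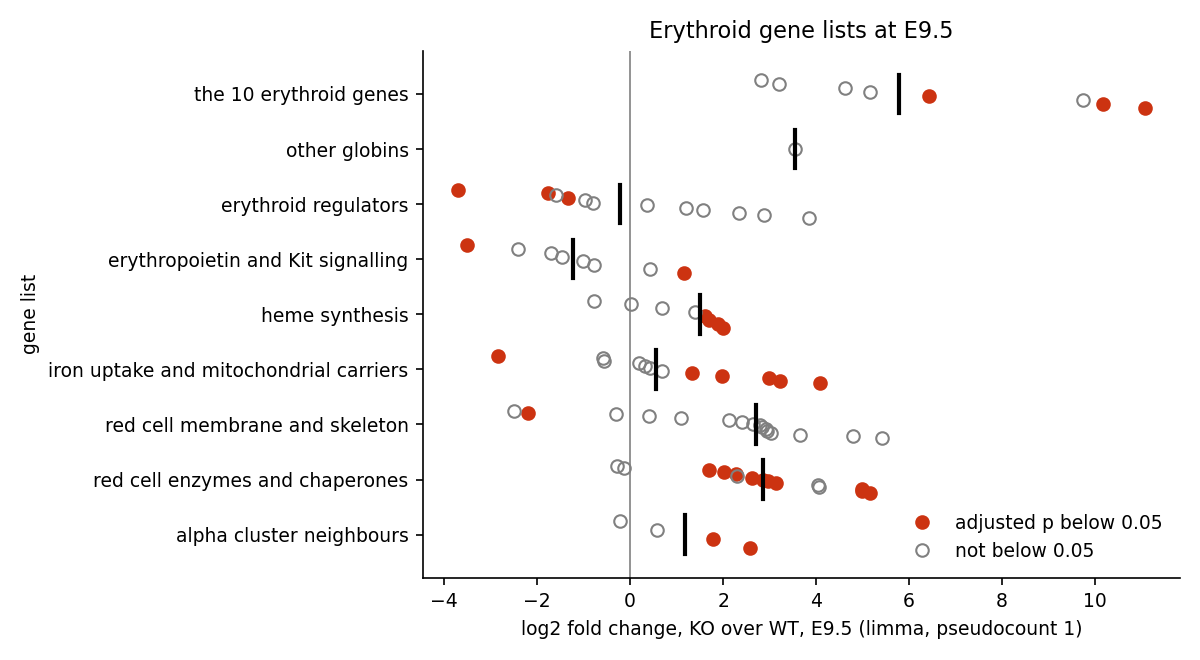
log2 fold change, KO over WT, of each tested gene of the erythroid lists at E9.5 (points; filled where the limma adjusted p is below 0.05; bars are list medians). Filled points lie on both sides of 0 in the erythropoietin and iron lists, below 0 among regulators and membrane genes, and above 0 among heme enzymes and red cell enzymes.

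Other erythroid genes at E9.5 were described by lists chosen with earlier results of these data known, and their counts stand beside 24.5% of all genes called as higher and 23.0% as lower. Of the heme synthesis enzymes beyond Alas2, 4 of 8 rose, among them Alad (2183 and 2145 in KO cells, against 715 and 629 in WT cells), Uros and Urod, and the list median was 1.50 against -0.14 over all genes tested. Of 12 genes of iron uptake and mitochondrial carriers, 5 rose and 1 fell, in all a share near the 47.5% of all genes called. Tfr2, a transferrin receptor and iron sensor, had 74.9 and 22.1 in KO cells, against 1.01 and 2.02 in WT cells, and the iron-storing ferritin chains Fth1 (37007 and 33304, against 4728 and 4129 in WT) and Ftl1 (158318 and 145733, against 17788 and 14999 in WT) and the carriers Slc25a38 and Slc25a39 rose too. Tfrc, the main transferrin receptor of red cell precursors, fell to 307 and 57.8 in KO cells, against 754 and 1216 in WT cells. Unlike the globins, Alad and the ferritins were as high in KO2 as in KO1.

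Of 15 red cell enzymes and chaperones tested, 10 rose and none fell, where 24.5% of all genes rose, with a median of 2.85. Blvrb, a biliverdin reductase abundant in red cells, had 1062 and 148 in KO cells, against 12.2 and 11.1 in WT cells. Smim1, which carries the Vel blood group, had 482 and 57.8 in KO cells, against 7.09 and 2.52 in WT cells. Some genes of these erythroid lists, such as Smim1 and Tfr2, reached the minimum mean of 10 only through the KO libraries. The counts that rose in these lists therefore describe and do not support a difference. Car3, Bpgm, Prdx2, Fam210b, Ube2l6, Rgs10, Nxpe2 and Hebp1 were the others, and the third gene of high level, Bnip3l, had 1052 and 1737 in KO cells, against 1592 and 1723 in WT cells. Of 16 red cell membrane and skeleton genes, none rose and 1 fell, Epb4.1 (352 and 126 in KO cells, against 781 and 1209 in WT cells), although 13 had a positive log2 fold change. The glucose transporter Slc2a1 had 1119 and 1047 in KO cells, against 1343 and 1345 in WT cells.

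Of 12 other erythroid regulators tested, none rose and 3 fell, a share near the 23.0% of all genes: Myb (0 and 3.40 in KO cells, against 28.4 and 24.7 in WT cells), Klf3 (89.7 and 90.1, against 242 and 215 in WT) and Lin28b (339 and 270, against 825 and 1286 in WT). Ldb1, a partner of Gata1, had 604 and 559 in KO cells, against 463 and 442 in WT cells (limma adjusted p = 0.179). Of 8 genes of erythropoietin and Kit signalling, Socs2 rose (149 and 172 in KO cells, against 73.9 and 69.1 in WT cells) and Kit, the stem cell factor receptor that melanocyte precursors of the crest carry too, fell (33.8 and 3.40, against 139 and 139 in WT). Of 4 genes beside the alpha cluster tested, Mpg and Snrnp25 rose, Snrnp25 to 2662 and 2887 in KO cells, against 477 and 449 in WT cells. With the transcript-length trend removed, no gene of these erythroid lists was called as lower, and the counts called as higher were 5 of 8 for heme synthesis, 5 of 12 for iron, 6 of 15 for red cell enzymes, 1 of 16 for membrane genes, 1 of 12 for regulators, 1 of 8 for erythropoietin and Kit signalling and 2 of 4 beside the alpha cluster, where 16.0% of all genes were called as higher and 12.6% as lower. Alad and Snrnp25 were then no longer called. No gene of these lists was called at E7.5 or E8.5 by limma.

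Of 91 other erythroid genes in the table, 84 were above 0 in E9.5 KO1 and 59 in KO2, against 69 and 66 in WT cells. Of all 24421 genes, 14170 and 13196 were above 0 in KO1 and KO2, against 14871 and 15668 in WT cells, so KO2 had the fewest in both counts. In E9.5 KO2, the library with 151 globin reads, Slc4a1 and Hbq1b were at 0 along with Gata1, while Alas2 and Hemgn had 22 and 21 reads. At E8.5, 84, 87, 75 and 72 of the 91 were above 0 in KO1 to KO4, against 65, 68 and 66 in WT cells. Of all genes, 16165, 15678, 16377 and 15348 were above 0 there, against 15483, 15374 and 15498 in WT cells.

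**Figure D5:**
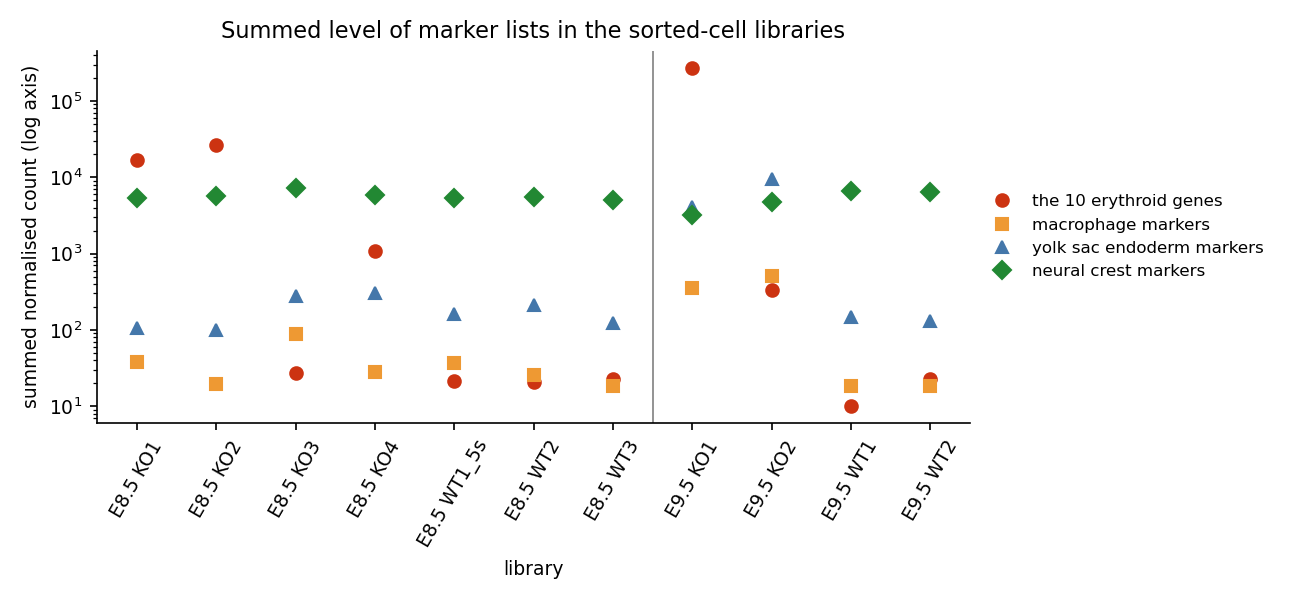
Summed normalised count (log axis) of the 10 erythroid genes and of 3 marker lists in each sorted-cell library, KO left of WT within a stage. At E9.5 the macrophage and yolk sac endoderm lists are high in both KO libraries, whereas the erythroid genes differ between them.

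Markers of some other cell types were also higher in the E9.5 KO libraries. The 14 macrophage markers summed to 359 and 507 in KO1 and KO2, against 18.2 and 18.2 in WT cells, with 12 and 11 of 14 above 0 in KO cells and 4 and 3 in WT cells. Of 9 tested, 5 rose (2 with the transcript-length trend removed), where 24.5% of all genes rose (16.0% with that trend removed). Spi1 and Adgre1 were at 0 in both KO libraries. The 14 genes of the yolk sac endoderm list, many of them plasma proteins that liver makes too, summed to 4125 and 9524 in KO cells, against 147 and 131 in WT cells, and all 9 tested rose, with that trend removed too. Alb stood at 1589 and 3562 in KO cells, against 4.05 and 17.2 in WT cells, whereas Afp, a defining gene of that endoderm, stood at 1.06 and 0 in KO cells, against 0 and 0.505 in WT cells. Both lists were thus higher in KO2 than in KO1, the reverse of the globins. Genes of both lists reached the minimum mean of 10 largely through the KO libraries, so the counts that rose describe and do not support a difference. The 10 megakaryocyte markers summed to 64.4 and 18.7 in KO cells, against 24.3 and 5.55 in WT cells, so the groups overlapped, and none was tested. The 17 endothelial markers summed to 1493 and 1244 in KO cells, against 808 and 833 in WT cells, yet of 9 tested 2 rose and 1 fell, with a median log2 fold change of -0.48. Neural crest markers summed to 3169 and 4755 in KO cells, against 6692 and 6476 in WT cells. Of 15 tested, 0 rose and 4 fell, where 23.0% of all genes fell. With the transcript-length trend removed 6 were called as lower, where 12.6% of all genes were. Of these 6, Ednrb, Ets1, Snai2 and Sox9 had lower normalised counts in both KO libraries than in both WT libraries. Sox9 had 209 and 457 in KO cells, against 1506 and 1359 in WT cells. Before that correction Snai1 was higher in KO cells (169 and 165, against 117 and 122 in WT) and Twist1 overlapped (630 and 364, against 603 and 643 in WT). Sox10 itself had 511 and 1165 in KO cells, against 722 and 639 in WT cells. The part of these other cell types in the erythroid values was not tested.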

How the data were processed

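RNA of whole embryos or sorted cells was copied with a SMART-Seq v4 kit and made into libraries with Nextera XT, per the labels' protocols. FastQC 0.11.5, STAR 2.7.0f and the build mm10 are named in the submitters' processing notes. No source used here says how reads were counted. The deposited stage tables hold counts per gene divided by a size factor per library, a normalised signal: 100% of values were whole multiples (tolerance 0.01) of 1 read, per the file headers one column a library. The authors' deposited tables of selected genes give log2 fold changes, a mean signal, a test score and p-values; that of E7.5 did not match the stage table's means and was not used.

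Members and lists were chosen with earlier results of these data known. Named were all members in each library, the 10 genes most like them at E8.5 and, of each erythroid list, the genes called and up to 3 of highest level. Each stage was fitted alone with limma 3.58.1 (R 4.3.3) on log2(normalised count + 1), for genes with a mean of at least 10, at an adjusted p threshold of 0.05, over 12492, 12257 and 12000 genes. The fits were tested on simulated data. Recovered reads gave RPM, RPKM (principal GENCODE M21 transcript), exact Poisson and Clopper-Pearson intervals (scipy 1.17.1) and count tests with edgeR 4.0.16 and DESeq2 1.42.0. Of same-numbered libraries, none of the labels says that they are paired. No value column lacked a sample. Some genes that this naming rule selects are not reported here.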

Additional observations from a re-analysis of the deposited data

How the results depend on the processing

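At E7.5 no member was called under any setting that gave a value, among them the other pseudocounts (8 and 0.1), no minimum mean, TMM scaling, edgeR, DESeq2, the removed length trend, code number 239 alone and each library left out; at a minimum mean of 100 no member was left to test. Of the 42 E7.5 alternatives for single members, 4 turned the direction. Over the libraries left out in turn, Gata1 ranged from -1.12 (without KO2) to 0.56 (without KO1) and Alas2 from -0.15 (without WT1) to 1.02 (without WT2). Epor ranged from -3.09 (without KO1) to 0.19 (without KO2). The fit within code number 239 is the same as that without KO2 and is counted again. The fits with no minimum mean, a replicate block or a crossed pairing leave the log2 fold change as it is, so they could not turn it. At E8.5 the count of members called was 3 by DESeq2 (Hba-x, Hbb-bh1 and Klf1, among 32 genes) and 1 with the replicate block. It was 0 to 3 when 1 library was left out (3 without KO3, where 3 genes were called in all). Under the others it was 0, including without code number 128 and, chosen after seeing the data, without KO3 and WT3. Nothing is read from these E8.5 counts, since the contrast was known when the genes were chosen. At E9.5, where 3 were called among 5700 genes, the count was 1 with no minimum mean (Hemgn, among 4997 genes). It was 1 with the length trend removed (Hemgn, among 3411 genes) and 5 by edgeR (among 5475 genes). By DESeq2 it was 6 (Alas2, Epor, Hba-x, Hbb-bh1, Hbb-y and Hemgn), among 5865 genes. Counts of members with 1 library left out are not given at E9.5, since each such fit leaves 1 library in a group. Of the 106 E9.5 alternatives that gave a value for a member, none turned its direction. Those with another minimum mean, a replicate block or a crossed pairing could not, since they leave the log2 fold change as it is. Without KO1, Gata1, Klf1 and Epor fell under the minimum mean and gave none. KO2 alone had Epor at 1.70, against 2.03 and 4.04 in WT, and Gata1 at 0, against 1.01 and 0 in WT. Over these alternatives the log2 fold change of Hba-x ranged from 5.34 to 15.27. In limma fits of all 4 libraries, Hba-x no longer passed the threshold at a pseudocount of 8, with no minimum mean or with the length trend removed. The cause was not tested.

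With the replicate block, 1 member was called at E8.5 (Klf1, among 678 genes against 0 without it), 6 at E9.5 (among 5722 genes) and 0 at E7.5 (among 47 genes). The replicate numbers are not shown to pair the libraries: deviations of same-numbered libraries correlated at -0.12 at E7.5, at -0.17 at E9.5 and at 0.08, -0.02 and 0.55 at E8.5. A crossed pairing, chosen after seeing the data, gave 6 members at E9.5 (among 6665 genes) and 0 at E7.5 (among 48 genes). The planned fit with the further E8.5 KO library was not run, as that library was not analysed here. Members with under 10 reads in a library, such as Klf1 and Gata1 in WT cells, carry counting errors as large as their values.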
